A study of Homo sapiens with 6 samples.

Results

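Of the genes measured on the arrays, 10 that encode cadherins and protocadherins are described here together: CDH1, CDH2, CDH3, CDH4, CDH6, CDH11, CDH13, CDH18, PCDH7 and PCDH17. The symbols were picked from the cadherin family with earlier results of these data known, and their probes were then taken by name, as every non-control probe whose gene name in the scanner output was one of these symbols, which gave 10 of the 29123 named genes, 21 of the 41000 probes and 30 of the 43376 non-control spots. The study asked how the focal adhesion protein Hic-5, encoded by TGFB1I1, acts in ovarian cancer cells, and its 6 Agilent whole-genome 2-colour arrays each compared a modified clone with the mock-transfected control clone (Ctrl) of the same line. In SKOV3, a human ovarian adenocarcinoma line, 2 clones labelled as shRNA-Hic-5 knockdowns (sh-S1 and sh-S2, lentiviral pLKO.1-puro shRNAs) were each set against the same Ctrl on a dye-swapped pair of arrays. In A2780s, another ovarian adenocarcinoma line, 1 clone that overexpressed Hic-5 from a CMV promoter plasmid (pCMV-Hic-5) was set against its own Ctrl, also on a dye-swapped pair. Both lines grew in RPMI medium with no other agent given in the labels, and each modified RNA came from 1 clone, so the effect of the modification and a property of that clone cannot be told apart.

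Classical cadherins are calcium-dependent adhesion molecules whose outer domains bind cadherins on the next cell and whose tails bind beta-catenin and p120-catenin, which join them through alpha-catenin to actin. Protocadherins share the outer repeats but have different tails and do not build adherens junctions of that kind. In carcinomas a shift from E-cadherin (CDH1) to N-cadherin (CDH2) is a widely used sign of the epithelial-to-mesenchymal transition (EMT), and transcription factors of the SNAIL, ZEB and TWIST families repress CDH1.

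A probe reads only the stretch of transcript it matches, so the probes that carry the results are shown with the first 30 of their 60 bases, 5′ to 3′, to let the genes, and the several probes of CDH6 and PCDH7, be told apart. Coordinates are those of the whole probe on hg19, as the scanner files give them.
CDH2, probe A_23_P38732, chr18:25532081-25532140, minus strand: atgtatggtggaggtgatgactgaacttca
CDH6, probe A_23_P214011, chr5:31324207-31324266, plus strand: gccaccacatgtatcacgggtcacttgaaa
CDH6, probe A_32_P134764, chr5:31328639-31328698, plus strand: cattgctttgagagtgaactgcctaagagt
CDH6, probe A_24_P687, chr5:31323155-31323214, plus strand: acagctcgcgacaacaccgatgtcagagat
CDH6, probe A_23_P426681, chr5:31251860-31251919, plus strand: atgaatgttactcttctcacattgttagca
CDH18, probe A_23_P84118, chr5:19473172-19473231, minus strand: gaagctggacacagctcctgtagaaacaag
PCDH17, probe A_23_P205057, chr13:58299328-58299387, plus strand: atctgggcagagagtctgtggatgcagagg
PCDH7, variant a probe A_23_P310921, chr4:30732673-30732732, plus strand: cggttagcacctattagacgtaacagtgat
PCDH7, variant c probe A_23_P378364, chr4:31144635-31144694, plus strand: gcctgattctactgtacaatgtagaaacca

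The arrays were uneven in brightness. On the SKOV3 slide the median background-subtracted Cy5 signal of an array was 9.5 to 25.5 units, against 373 to 530.5 in Cy3, and 43.7% to 63.6% of spots were well above background in Cy5, so a low RNA labelled with Cy5 was often near the limit. TGFB1I1 itself, the check of the labels, had log2 ratios of clone over Ctrl of -0.16 and 0.12 for sh-S1 and of -0.11 and 0.28 for sh-S2 (mean 0.03, SE 0.10, limma's adjusted p = 0.855), and was therefore not measurably lower in the RNAs labelled as knockdowns. "The clones" in SKOV3 stands for these labelled RNAs throughout. The paper reports that its knockdown clones were checked for inhibited Hic-5 by PCR and Western blot, which the array reading of this gene did not match. The reason was not tested, nor was whether these RNAs are the ones the labels name. In the pCMV-Hic-5 RNA TGFB1I1 was higher on both arrays, at 4.05 and 2.60, a mean of 10.0-fold. Both labelled RNAs differed from their Ctrl in markers of the line: the 4 of 5 listed epithelial keratin and EPCAM markers that could be tested were all lower (KRT7 -2.20, KRT8 -2.14, KRT18 -3.53 and KRT19 -2.55), as were ERBB2 (-2.28), which SKOV3 is known to carry in amplified form, and PAX8 (-3.58) and MECOM (-2.71) among 4 tested ovarian markers. The summed epithelial marker level was 14.9 to 15.5 on the log2 scale in the SKOV3 Ctrl, 12.1 to 12.8 in the clones and at most 11.1 in the A2780s RNAs, while the 2 leukocyte and 2 fibroblast markers tested were not called. Summed levels of those lists were 9.64 to 9.99 for leukocytes, 8.77 to 9.27 for fibroblasts and 8.21 to 8.45 for endothelium (no gene tested) over all 5 RNAs. In A2780s KRT18 was called higher and no other marker was called. These differences moved together with the cadherin results in SKOV3, and their part in those results was not tested.

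In SKOV3, 3 of the 10 genes were lower in the clones than in the Ctrl: CDH2, CDH6, which encodes K-cadherin, a cadherin of kidney and ovarian epithelium, and CDH18, which encodes cadherin-18, a type II cadherin known mainly from the nervous system. None of the 10 was called higher. A gene was called when its brightest tested probe differed at least 2-fold with an adjusted p of at most 0.05 from limma over 24956 probes. CDH13, CDH3, CDH4 and PCDH17 were tested and not called, and CDH1, CDH11 and PCDH7 were too dim to be tested. Over all 18922 genes tested in the same way, 4.54% were called lower and 3.40% higher, against 3 of 7 tested members (42.9%) lower. Since the members were picked with results known, nothing is read from that share; in the remaining cadherin superfamily 1 of 47 tested genes (2.13%) was called lower. The p-values cover only the spread between the 2 clones, since both were compared with the same Ctrl RNA, whose own spread is not in them.

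**Figure D1:**
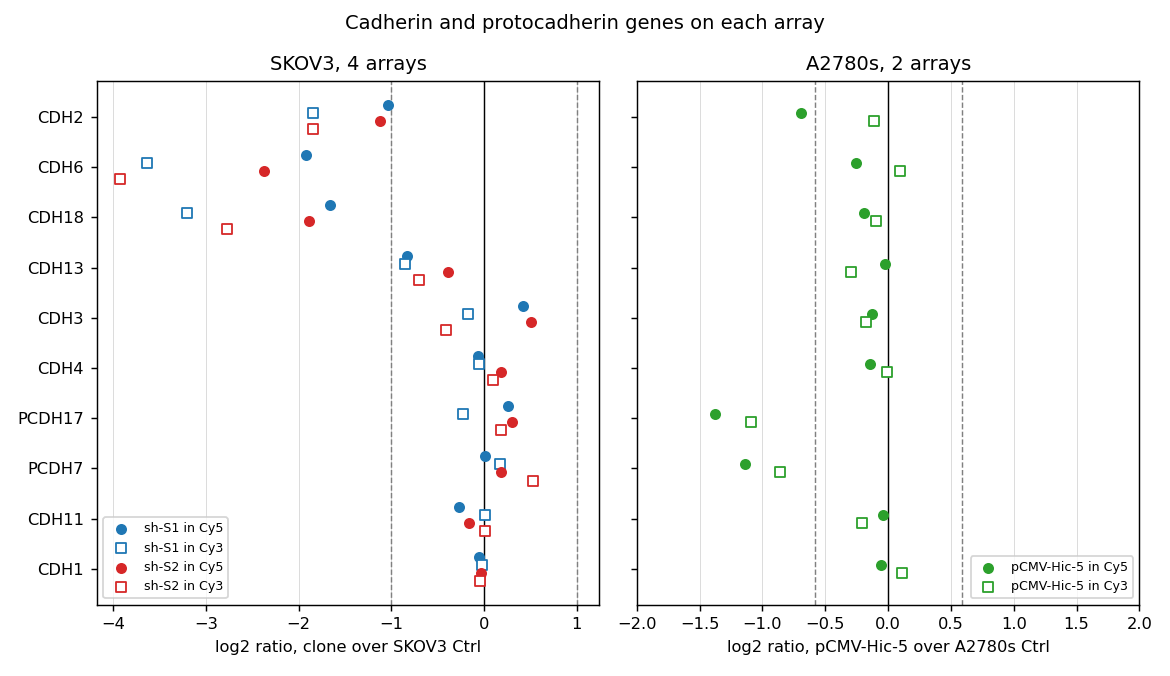
Log2 ratio of the modified clone over its Ctrl for the brightest probe of each of the 10 genes, one point per array (filled, clone in Cy5; open, clone in Cy3; dashed lines, the 2-fold limit in SKOV3 and the 1.5-fold limit in A2780s; the scales of the x axes differ). CDH2, CDH6 and CDH18 lie below 0 on all 4 SKOV3 arrays, and PCDH17 and PCDH7 lie below 0 on both A2780s arrays.

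CDH2 was lower on every SKOV3 array. Its log2 ratio was -1.04 and -1.85 in sh-S1 (clone in Cy5, then in Cy3) and -1.12 and -1.84 in sh-S2. The clones were almost alike once the dyes were averaged, with a mean of -1.46 ± 0.03 (SD, n = 2 clones), 2.75-fold lower, and limma's adjusted p was 7.33e-05. The spread between dye orientations of the same clone was thus far wider than the spread between clones. The spot signals before any normalization showed the same order within each dye: in Cy3 the Ctrl read 5216.8 and 4249.3 units above background and the clones 904.2 and 955, while in Cy5 the Ctrl read 218.1 and 231.1 and the clones 29.5 and 37.7. No clone reading came near a Ctrl reading of the same dye. Those raw readings of the same dye were 4.45 to 7.39 times apart, across different arrays and without scaling.

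CDH6 showed the widest difference of the members. Its brightest probe, A_23_P214011, had log2 ratios of -1.92 and -3.63 in sh-S1 and of -2.38 and -3.93 in sh-S2. The mean was -2.96 ± 0.27 (SD, n = 2 clones), 7.80-fold lower (limma's adjusted p = 1.04e-05). All 4 arrays were past the 2-fold limit. In Cy3 the Ctrl spot read 7510.1 and 7860 units and the clone spots 232.3 and 268.8, and in Cy5 the Ctrl read 296.9 and 394.8 against 9.8 and 13.1 for the clones, the former not well above background. The raw readings were therefore 29.2 to 32.3 times apart where both were well above background. The normalized ratio, made after 50 units had been added to every corrected signal, was smaller. With the scanner software's own processed signals the log2 ratio was -4.68. It was -3.36 with median centring, where the 50 units were kept, and -3.15 without background correction, where they were not added. The addition was not varied alone, so its part in the size of the ratio was not tested.

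**Figure D2:**
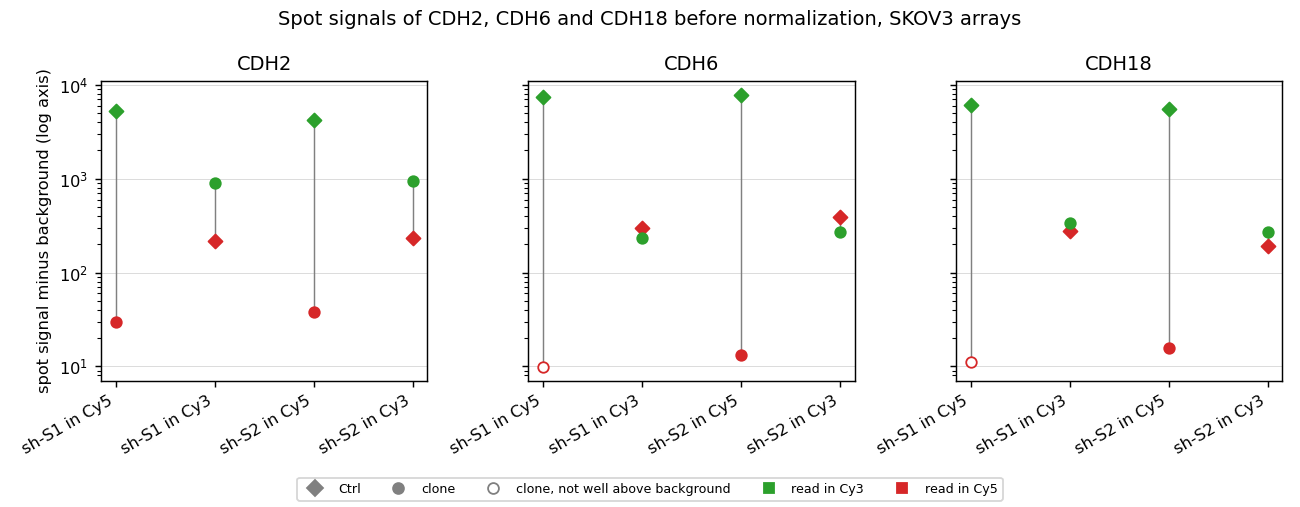
Spot signal minus local background, in scanner units on a log axis, for CDH2, CDH6 and CDH18 on the 4 SKOV3 arrays, before normalization (diamonds, Ctrl; circles, clone; green, read in Cy3; red, read in Cy5; open, not well above background). Within each dye every Ctrl point lies above every clone point, and the Cy5 readings of an RNA are far dimmer than its Cy3 readings.

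The array carried 5 probes named CDH6, and they did not read alike. Probe A_32_P134764, 4432 bases further along the plus strand than the brightest probe, read -1.23, -2.47, -1.61 and -2.0. It passed the filter through the Ctrl alone, since the clones were well above background in Cy3 but not in Cy5, so its values are given as a description and not as support. Probe A_24_P687, 1052 bases upstream of the brightest probe, was lower on all 4 arrays by less (-0.50, -0.87, -0.64 and -0.95), with a mean of -0.74, under the 2-fold limit (limma's adjusted p = 0.00148). It passed the limit with median centring in place of the intensity-dependent normalization (-1.13) and with the processed signals (-1.87). Probe A_23_P426681, 71295 bases upstream of A_24_P687, also passed through the Ctrl alone and read -0.33, -0.15, -0.63 and -0.06 (mean -0.29), and A_32_P148322 was too dim to be tested, with values from -0.46 to 0.15. The size of the CDH6 difference therefore depended on the probe, and the 2 probes with the brightest Ctrl signals, 7510.1 and 3388.3 units on the sh-S1 array with the Ctrl in Cy3, gave the widest differences.

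**Figure D3:**
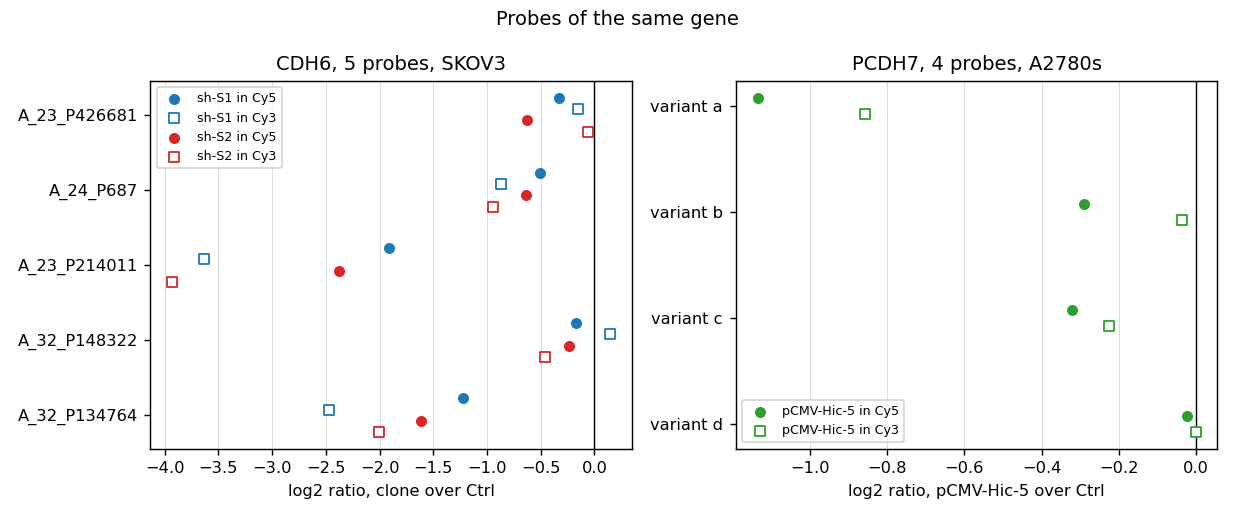
Log2 ratio of clone over Ctrl for each of the 5 CDH6 probes on the SKOV3 arrays, in genome order (left), and for each of the 4 PCDH7 probes on the A2780s arrays (right), one point per array. In CDH6 only A_23_P214011 and A_32_P134764 lie wholly below -1, and in PCDH7 the variant a probe stands apart from the other 3.

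CDH18 was 5.21-fold lower in the SKOV3 clones. Its single probe read -1.66 and -3.20 in sh-S1 and -1.89 and -2.77 in sh-S2, with a mean of -2.38 ± 0.07 (SD, n = 2 clones). The adjusted p from limma was 1.02e-05. As for CDH2 and CDH6, the ratio was wider with the clone in Cy3 than in Cy5, and it was past 2-fold in both orientations. The Ctrl read 6172.1 and 5520 units in Cy3 against 337.3 and 268.5 for the clones. In Cy5 the Ctrl read 275.8 and 192.5 units against 11 and 15.6 for the clones, the former not well above background. With the processed signals the log2 ratio was -3.90.

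CDH13, which encodes T-cadherin, a cadherin held by a lipid anchor that has no catenin-binding tail, was lower on all 4 arrays but under the 2-fold limit. The log2 ratios were -0.83, -0.85, -0.39 and -0.70, with a mean of -0.70 ± 0.21 (SD, n = 2 clones), 1.62-fold, and limma's adjusted p was 0.00351. It passed the limit with the processed signals, at -1.33. In Cy3 the Ctrl read 1725.9 and 1552.4 units and the clones 492.8 and 651, so that the raw readings were 2.38 to 3.50 times apart in that dye.

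CDH3, which encodes P-cadherin, the placental and basal epithelial cadherin, was bright enough for both channels of all 4 arrays and showed no called difference. Its log2 ratios were 0.43 and 0.51 with the clone in Cy5 and -0.18 and -0.41 with it in Cy3, a mean of 0.09 (SE 0.09, limma's adjusted p = 0.559). Its raw readings of the same dye were 1.13 to 1.51 times higher in the Ctrl, which shows by how much unscaled readings of different arrays differed in a gene with no call. The sign followed the dye and not the clone, and the mean turned to -0.06 with median centring. The tested CDH4 probe, A_23_P28999, read -0.07, -0.05, 0.18 and 0.10 (mean 0.04, limma's adjusted p = 0.824), and its mean turned to -0.04 with median centring. It passed the filter through sh-S2 alone. The other CDH4 probes, A_23_P17593 and A_24_P940656, were too dim to be tested and had mean log2 ratios of 0.03 and 0.12. A p above the threshold does not show that these genes were equal in the 2 RNAs.

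CDH1 was measured by 10 spots of 1 probe per array, and all of them were dim. On the SKOV3 arrays its mean log2 ratios were -0.05, -0.02, -0.03 and -0.04, while the SD between spots of the same array was 0.11 to 0.18. All 10 spots were well above background in Cy3 on every SKOV3 array and none was in Cy5, so each array held a usable reading for 1 of its 2 RNAs. The median Cy3 signal was 166 and 160 units for the Ctrl and 101 and 114 for the clones, on different arrays. By the mean over spots, the Cy3 reading of the Ctrl was 1.63 times that of sh-S1 and 1.37 times that of sh-S2, so neither clone read higher in that dye. These readings were unscaled, and those of CDH3, which was not called, were 1.51 and 1.47 times apart in Cy3. A ratio of 2 usable readings on the same array could not be had. On 2 arrays, those with sh-S2 and with pCMV-Hic-5 in Cy3, 1 outlier spot of the 10 was left out of the mean. In A2780s none of the 10 spots was well above background in either dye on 1 array, and 5 of 10 in each dye were on the other, with ratios of -0.06 and 0.11. CDH11, which encodes OB-cadherin, a mesenchymal cadherin, was likewise not tested in SKOV3, its brighter probe, A_23_P152305, reading -0.27, 0.01, -0.16 and 0.01, and -0.04 and -0.21 in A2780s. Its other probe, A_24_P253676, read 0.05, -0.27, 0.04 and 0.12, and 0.22 and -0.06 in A2780s. Whether CDH1 or CDH11 differed could not be settled from these spots.

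The protocadherins were called in the other cell line, by size alone. In A2780s, where no test is possible with 1 pair of RNAs, a gene was called when the mean of the dye-swapped arrays was at least 1.5-fold and both had the same sign. PCDH17 and PCDH7 were called lower in pCMV-Hic-5 and no member was called higher, among 7 members that passed the filter on dim probes. Over all 22105 genes that passed it, 1.45% were called lower and 3.43% higher. PCDH17, which encodes a delta-2 protocadherin that can bind a regulator of actin assembly, had log2 ratios of -1.38 and -1.09, a mean of -1.24, 2.36-fold lower. The spots read 397.9 and 227.9 units in pCMV-Hic-5 against 644.3 and 644.1 in the Ctrl on the same arrays. The second PCDH17 probe, A_24_P911906, read lower as well (-0.50 and -0.66), but it was not well above background in pCMV-Hic-5. In the Ctrl it was well above background on only 1 of the 2 arrays, so no bound on the fold is given.

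PCDH7, a delta-1 protocadherin that binds the phosphatase PP1, had 4 probes, one for each of the transcript variants a, b, c and d. The variant a probe read -1.14 and -0.86 in A2780s, a mean of -1.0, 2.0-fold lower. The variant c probe passed the filter and read -0.32 and -0.23 (mean -0.27), under the limit. The variant b probe read -0.29 and -0.04 and the variant d probe -0.02 and -0.00, both too dim to pass. The variant a probe was also the brightest, with 656.3 and 622.1 units in the Ctrl against 174.7 and 199.2 for variant c and at most 85 for the others, and the call rests on it alone. In pCMV-Hic-5 the variant a probe read 495 and 264.4 units on the same arrays. Its raw Ctrl reading was 2.48 times that of pCMV-Hic-5 in Cy3 but 1.26 times in Cy5, across different arrays and unscaled. With background parameters fitted on all spots, the means were smaller, -0.90 for PCDH17 and -0.73 for PCDH7, and both calls held.

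In SKOV3 these protocadherins were dim and were not called. PCDH17 read 0.26, -0.22, 0.31 and 0.18 (mean 0.13, limma's adjusted p = 0.404). The variant a probe of PCDH7 was not tested and read 0.01, 0.17, 0.18 and 0.53. In turn, the cadherins that were lower in the SKOV3 clones were not called in A2780s: CDH2 read -0.69 and -0.11 (mean -0.40), CDH6 -0.25 and 0.09, CDH18 -0.19 and -0.10, CDH13 -0.02 and -0.30. CDH3 read -0.13 and -0.18 there. CDH2 passed the 1.5-fold limit when pCMV-Hic-5 was labelled with Cy5 and not on the dye swap. The difference between the 2 lines was not tested, since A2780s has 1 pair of RNAs.

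The levels of the genes in the 5 RNAs, taken per channel as normalized log2 intensities and compared for 1 probe at a time, put the SKOV3 Ctrl at the top for the cadherins that were lower in the clones. CDH2 stood at 10.79 in the SKOV3 Ctrl (10.55 to 10.95 over 4 channels), at 9.47 in sh-S1 and 9.20 in sh-S2 (2 channels each), and at 8.59 in the A2780s Ctrl and 8.19 in pCMV-Hic-5. CDH6 stood at 11.28 (10.93 to 11.69) in the SKOV3 Ctrl, 8.43 and 8.22 in the clones, and 7.13 and 7.04 in the A2780s RNAs. For CDH18 the levels were 10.81 (9.97 to 11.19), 8.63, 8.24, 7.36 and 7.22 in the same order. The clone means of CDH6 and CDH18 averaged channels that lay far apart. For CDH6, sh-S1 read 7.30 in Cy3 and 9.56 in Cy5, and sh-S2 read 7.12 and 9.32. For CDH18, sh-S1 read 7.74 and 9.53, and sh-S2 read 7.20 and 9.28. The Cy5 channel of sh-S1 was not well above background in either gene. In Cy3 the A2780s Ctrl read 7.18 for CDH6 and 7.34 for CDH18. In CDH2, CDH6 and CDH18 the channels of the SKOV3 Ctrl did not overlap with those of either clone. The clones overlapped with each other, and the nearest clone and the A2780s Ctrl overlapped. With quantile normalization of all channels that last overlap was gone, the lowest sh-S2 channel reading 8.85 for CDH2, 7.50 for CDH6 and 7.50 for CDH18 and the highest A2780s Ctrl channel 8.71, 7.16 and 7.36. CDH13 was at 9.26 in the SKOV3 Ctrl, 8.46 in sh-S1 and 8.66 in sh-S2, and 7.83 and 7.67 in A2780s. With quantile normalization sh-S1 was at 7.53, below the A2780s Ctrl (7.81) and pCMV-Hic-5 (7.69), so its place in the order depended on the scaling. CDH3 was at 9.20 in the SKOV3 Ctrl and 9.39 and 9.20 in the clones, all 3 overlapping, and lay apart from 8.59 and 8.44 in the A2780s RNAs.

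For PCDH17 and the variant a probe of PCDH7 the Ctrl RNAs of the lines stood in the opposite order. PCDH17 was highest in the A2780s Ctrl, at 8.68 (8.5 to 8.85 over 2 channels), apart from the 4 other RNAs, whose means lay between 7.38 and 7.67 with overlapping channels between neighbours. Variant a of PCDH7 was at 8.63 in the A2780s Ctrl, at 7.63 in pCMV-Hic-5 and between 6.62 and 6.88 in the SKOV3 RNAs, with the first 2 neighbours in that order apart from each other and from the rest. The SKOV3 Ctrl minus the A2780s Ctrl was thus 4.16 for CDH6, 3.45 for CDH18, 2.20 for CDH2 and 1.42 for CDH13, and -1.28 for PCDH17 and -2.01 for variant a of PCDH7. The variant b and c probes of PCDH7 did not share that order, at 0.27 and 0.03, with overlapping channels. For the CDH6 probes other than the brightest, the same difference was 2.99, 2.59, 0.84 and 0.75, with overlapping channels at 0.84. Those at 2.99, 2.59 and 0.75 were not well above background in the A2780s Ctrl. The lines lay on separate slides, so that the line and its slide cannot be told apart in these levels. In RNA from bulk cultures, fewer cells with a transcript and less of it per cell cannot be told apart either.

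**Figure D4:**
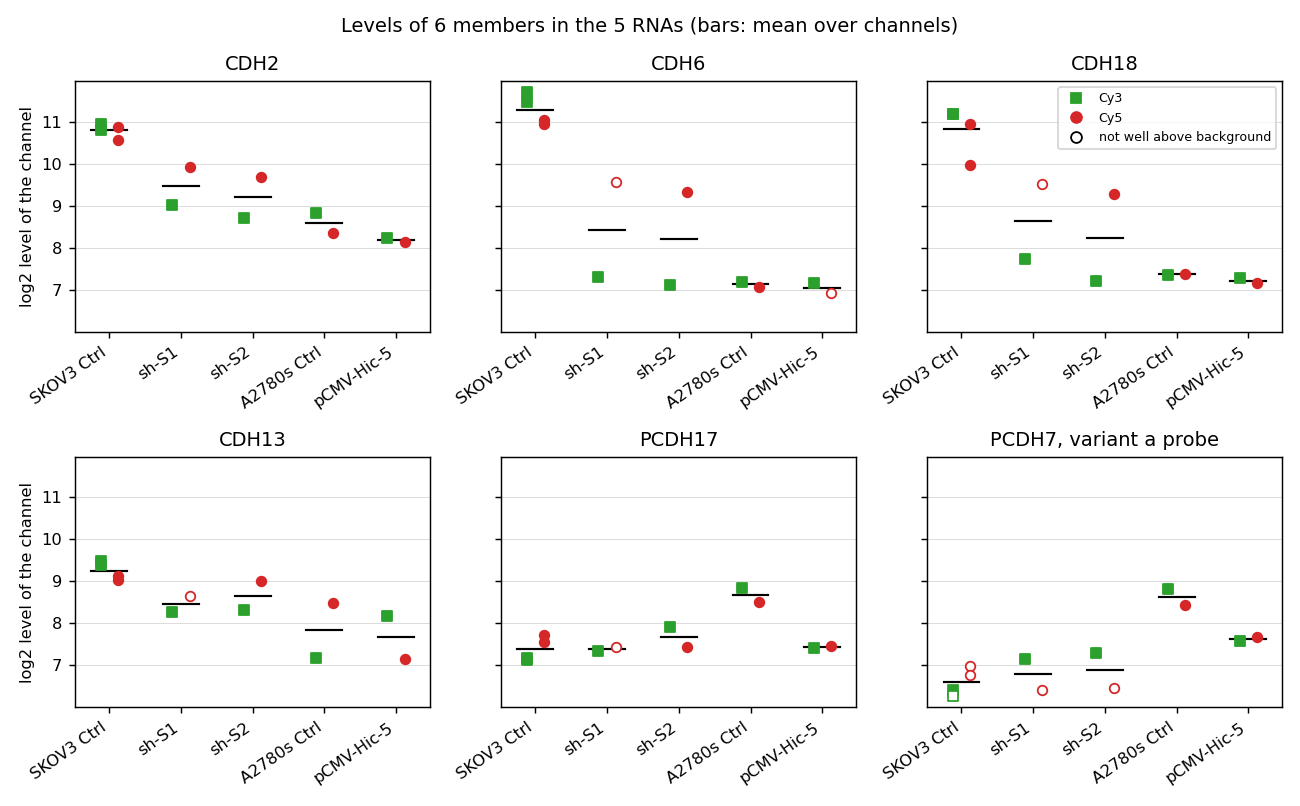
Normalized log2 level of 6 genes in each channel of the 5 RNAs (green squares, Cy3; red circles, Cy5; open, not well above background; bars, mean over the channels of an RNA). The SKOV3 Ctrl lies above the clones in CDH2, CDH6, CDH18 and CDH13, and the A2780s Ctrl lies above the other RNAs in PCDH17 and in the variant a probe of PCDH7.

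Promoters of called genes that had a matching entry are shown because EMT factors bind E-boxes, the letters CANNTG, which read as CANNTG on the other strand too. RefSeq sequences (GRCh38.p14) were matched for CDH2, CDH4, CDH18, PCDH7 and PCDH17, with 9 transcript starts, and not for CDH1, CDH3, CDH6, CDH11 and CDH13. The 250 bases before the start are given in the direction of the gene, E-boxes in capitals; for CDH2 and CDH18 the start that lies outermost is shown.
CDH2, chr18:28177131-28177380, minus strand: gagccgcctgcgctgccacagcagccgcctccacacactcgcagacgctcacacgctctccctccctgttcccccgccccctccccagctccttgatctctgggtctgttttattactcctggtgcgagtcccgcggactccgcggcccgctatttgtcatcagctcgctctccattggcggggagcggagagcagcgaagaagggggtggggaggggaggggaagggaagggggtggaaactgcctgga
CDH18, chr5:20575714-20575963, minus strand: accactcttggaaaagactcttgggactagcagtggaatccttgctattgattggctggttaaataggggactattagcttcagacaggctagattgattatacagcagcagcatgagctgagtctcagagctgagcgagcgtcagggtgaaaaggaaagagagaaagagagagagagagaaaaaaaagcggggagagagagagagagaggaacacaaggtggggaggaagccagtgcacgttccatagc
PCDH7, chr4:30720119-30720368, plus strand: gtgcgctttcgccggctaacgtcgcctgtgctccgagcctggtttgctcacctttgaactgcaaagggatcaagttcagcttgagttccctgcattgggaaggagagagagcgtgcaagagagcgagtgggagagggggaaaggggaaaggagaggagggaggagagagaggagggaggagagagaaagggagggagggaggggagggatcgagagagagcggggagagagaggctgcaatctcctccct
PCDH17, chr13:57631494-57631743, plus strand: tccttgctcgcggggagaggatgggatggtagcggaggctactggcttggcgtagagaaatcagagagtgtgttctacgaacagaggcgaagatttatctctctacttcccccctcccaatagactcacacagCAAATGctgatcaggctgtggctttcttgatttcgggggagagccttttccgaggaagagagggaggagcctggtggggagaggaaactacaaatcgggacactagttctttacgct
The windows shown for CDH2, CDH18 and PCDH7 held no CANNTG and that of PCDH17 held 1, where 61.8% of 35116 such windows held at least 1. The inner CDH2 start had 1, the other CDH18 starts had 0 and 2, and the CDH4 starts had 2 and 1. The SNAIL-type form, CACCTG or CAGGTG (each the other strand's reading of the other), was in 17.5% of all windows and in 1 of these 9, the first CDH4 start. These are matches of letters in short windows and say nothing of binding.

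The other genes of the pathway were taken from 3 lists: the remaining cadherin superfamily, the catenins and junction partners of cadherins, and repressors of CDH1 with epithelial transcription factors. The median log2 ratio in SKOV3 was -0.70 over the 7 tested members, -0.01 over 47 tested genes of the remaining superfamily, -0.10 over 29 catenins and junction partners, and -0.11 over 15 repressors and epithelial factors, against 0.00 over all tested genes. In A2780s the medians were -0.16 over 7 members, -0.07 over 59 genes, -0.10 over 30 and 0.04 over 16, against -0.01 over all genes. The 3 lists held log2 ratios of both signs, and their medians lay near that of all genes. Calls in SKOV3 went only lower among the junction partners (9) and only higher among the repressors and epithelial factors (3). Since the members were picked with results known, nothing is read from their median.

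**Figure D5:**
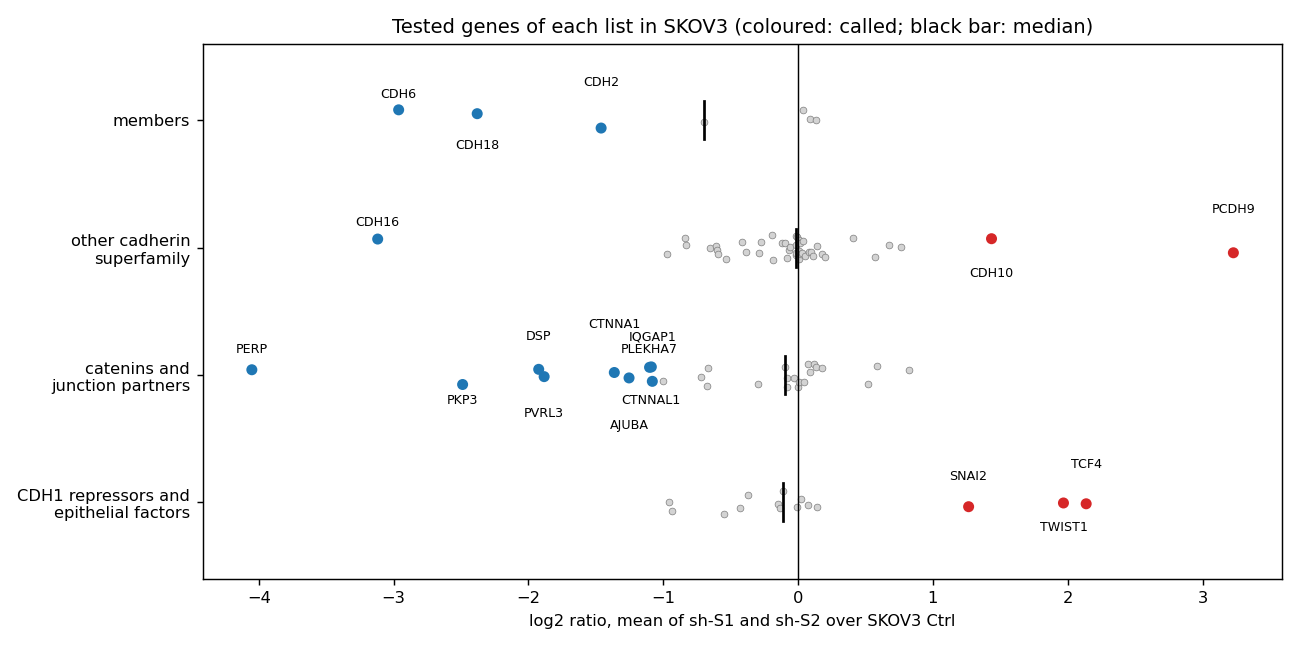
Log2 ratio in SKOV3 (mean of sh-S1 and sh-S2 over Ctrl) of every tested gene of the 10 members and of 3 related lists, 1 point per gene by its brightest tested probe (blue, called lower; red, called higher; grey, not called; black bars, medians). Lower calls number 3 of 7 in the members and 9 of 29 in the junction partners, and the 3 calls among the repressors are all higher.

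In the remaining superfamily 1 of 47 tested genes was called lower and 2 higher in SKOV3. CDH16, which encodes the kidney-specific cadherin, was lower on all 4 arrays at -2.12, -3.80, -2.33 and -4.22 (mean -3.12, limma's adjusted p = 7.19e-06), a size like that of CDH6. CDH10, a type II cadherin of the brain, was higher at 0.97, 2.13, 1.2 and 1.45 (mean 1.43). It passed the filter through the clones alone, where it was high, so its call is given as a description. PCDH9, a delta-1 protocadherin, was higher at 5.45 and 3.56 in sh-S1 and at 1.99 and 1.91 in sh-S2 (mean 3.23 ± 1.81, SD over the 2 clones, and 0.00349 for limma's adjusted p), so that the clones differed widely in it. Its other probe was too dim to be tested and read 0.21, 0.53, -0.00 and 0.29. The levels of CDH16 were 11.97 in the SKOV3 Ctrl, 8.98 and 8.72 in the clones and 6.82 and 6.86 in the A2780s RNAs, and those of CDH10 were 7.95, 9.58, 9.18, 10.25 and 9.86. PCDH9 was at 8.87 in the SKOV3 Ctrl, 13.98 in sh-S1, 10.23 in sh-S2 and 11.05 and 10.80 in the A2780s RNAs. The clone means lay between those of the SKOV3 Ctrl and of the A2780s RNAs for CDH16 and CDH10, whereas for PCDH9 sh-S1 lay far above both. In A2780s 4 of 59 genes were called higher, PCDHB13 (2.14 and 1.74), CDH15 (1.39 and 1.01), PCDH10 (0.70 and 0.68) and CDH24 (0.97 and 0.22), and PCDH19 was called lower (-0.74 and -0.81). The other probes of PCDHB13 and PCDH10 read near 0, with means from -0.26 to 0.10.

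Of the 29 tested catenins and junction partners, 9 (31.0%, against 4.54% of all genes) were called lower in SKOV3 and none higher. PVRL3 and PLEKHA7 passed the filter through the Ctrl alone, where they were high, so the share is given as a description; the other 7 were well above background in both RNAs on all 4 arrays. These were PERP (-4.05), PKP3 (-2.49) and DSP (-1.92), which belong to desmosomes, the adhesion plaques built on desmosomal cadherins, PVRL3 (nectin-3, -1.88), CTNNA1 (alpha-catenin, -1.36), AJUBA (-1.25), a LIM-domain protein of adherens junctions, PLEKHA7 (-1.10), a partner of p120-catenin, CTNNAL1 (-1.09), a relative of alpha-catenin, and IQGAP1 (-1.08), a scaffold that binds actin. PERP was the widest of them, at -2.58, -4.88, -3.24 and -5.51 on the 4 arrays. Both CTNNA1 probes were called lower (the other at -1.13), whereas the other PVRL3 probes were under the limit at -0.76 and -0.65, and CTNNB1, beta-catenin, had a mean of 0.13 by its probe A_23_P29495 (limma's adjusted p = 0.355). By 1 clone alone, with no test, AJUBA (sh-S1, -0.99) and CTNNAL1 (sh-S2, -0.97) were under the 2-fold limit. In A2780s JUP, or plakoglobin, was called higher (0.94 and 0.37) and no gene of this list lower.

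Among the repressors of CDH1 and epithelial factors, 3 of 15 tested genes (20%, against 3.40% of all genes) were called higher in SKOV3 and none lower. The list was chosen with results known, so the share is given as a description. The list did not rise as a whole, with 9 of 15 log2 ratios below 0. TCF3 (-0.94, and -0.82 by its other probe) and TWIST2 (-0.55) were lower but under the 2-fold limit. TCF4 read 1.80, 2.13, 2.10 and 2.52 (mean 2.14), TWIST1 read 1.92, 2.03, 1.69 and 2.24 (mean 1.97) and SNAI2 read 1.78, 1.35, 1.06 and 0.87 (mean 1.26). The second probe of TCF4 was called as well, at 1.57, whereas those of TWIST1 (0.64) and SNAI2 (0.25) were not. These second probes passed the filter through the clones alone, so their values are given as a description and not as support. In sh-S1 alone the second TCF4 probe was at 0.99, under the limit. In sh-S2 alone SNAI2 was at 0.96, under the limit. SNAI1 had a mean of -0.96 in SKOV3, just under the 2-fold limit and past it in sh-S2 alone (-1.08), and was called higher in A2780s, at 2.26 and 1.92. All of the SKOV3 ratios share 1 Ctrl RNA, so the values of the repressors and of the cadherins stand side by side here without a test of their relation.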

How the data were processed

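Total RNA of each clone and its Ctrl was labelled with Cy3 and Cy5 and hybridised to Agilent whole human genome arrays of 60-base probes. The authors deposited the scanner output, whose spot and background intensity values are linear, with log10 ratios of Cy5 over Cy3 by Agilent Feature Extraction (version 8.5.1.1 per the labels, 10.7.3.1 per the file headers), and a value table holding the same log10 ratios (every spot within 0.01 on all 6 arrays), which was not used further. Here, spot mean minus background median was corrected with normexp (offset 50), ratios were loess-normalized within arrays with control spots at weight 0, turned to clone over Ctrl by the dyes in the labels, and spots of a probe were averaged (limma 3.58.1, R 4.3.3). Spots flagged as background outliers were left out of the normexp fit, a choice made after the data were seen. Outlier spots and spots with a background over 1000 were left out. Levels were log2 values per channel after loess and Aquantile. Probes well above background on all arrays in the Ctrl or in 1 clone were kept. In SKOV3 each clone's pair of arrays was averaged first, and limma tested the 2 clones against 0 with Benjamini-Hochberg adjustment over all kept probes. All arrays of a line shared a slide. Nothing in the labels says that the clones were cultured more than once, so the p-values measure the spread between these RNAs, which may be technical. Dye-swapped log2 ratios correlated at r = 0.605, 0.606 and 0.490 across probes, which are not independent. Every member with all its probes was named, and from each other list the called genes, at most 10 per list and line, a gene standing by its brightest tested probe. On simulated data the fit recovered most of its changed genes. The spread between clones was drawn there from the fit itself, and the simulated signals of changed genes were bright in both dyes. The dim Cy5 channel of the SKOV3 slide was thus not covered. The members and lists were chosen with earlier results of these data known. The number of arrays limits the precision. No saturated spot was found among the members.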

Additional observations from a re-analysis of the deposited data

Results flagged for a closer look

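The tested probe of CDH4, A_23_P28999, read on opposite sides of 0 in the SKOV3 clones: both sh-S1 arrays were below 0 (-0.07 and -0.05) and both sh-S2 arrays above it (0.18 and 0.10). The log2 ratio in sh-S2 minus that in sh-S1 was 0.20, and this difference was not tested. The probe passed the filter through sh-S2 alone, so the difference is given as a description and not as support. On different arrays and unscaled, the raw Cy3 reading of the Ctrl was 1.12 times that of sh-S1 and 2.86 times that of sh-S2.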

How the results depend on the processing

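The 3 lower SKOV3 calls among the members (CDH2, CDH6 and CDH18) were also made with normexp fitted on all spots, without background correction, with median centring, with no filter and, by the 2-fold limit alone with no test, in either dye orientation and from either clone (3 and 3). With the processed signals the count was 4, CDH13 being added, and it was 1, CDH2, when a probe had to be well above background in both channels on all arrays, where 2 members were tested. Of the related lists, 15 genes were called in SKOV3 and 32 with the processed signals; leaving out a clone gave 16 to 18 by the 2-fold limit alone, a looser rule. In A2780s the 2 member calls became 3 when the clone was read in Cy5 alone, CDH2 being added, and the 7 calls in the related lists became 14. Signs turned for CDH3 (median centring -0.061, clone in Cy3 alone -0.29), the CDH4 probe A_23_P28999 (median centring -0.043; -0.061 to 0.14 leaving out a clone), PCDH17 in SKOV3 (clone in Cy3 alone -0.022), PCDH19 in SKOV3 (-0.10 to 1.24 leaving out a clone) and TGFB1I1 in SKOV3 (clone in Cy5 alone -0.14; -0.021 to 0.083 leaving out a clone); the cause was not tested. Among the SKOV3 member probes, 83 of the values under alternatives kept their direction and side of the limit, 4 passed the limit only under the alternative and 5 turned sign. Quantile normalization in place of loess and Aquantile left 3 of the differences in level between the Ctrl RNAs moved by more than their spread and 18 not. No paired analysis was possible because the replicate numbers of the labels only separate dye-swapped arrays of the same RNAs. The dim Cy5 channel of the SKOV3 slide limits what can be read for CDH1, CDH11 and PCDH7.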
